A study of Mus musculus with 28 samples.

Results

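The 30 genes described here carry pyruvate into the mitochondrion, run the tricarboxylic acid (TCA) cycle and refill it, and they were chosen by symbol from 55291 genes in the tables. All 30 symbols were found. They are the carrier subunits Mpc1 and Mpc2, the pyruvate dehydrogenase complex (Pdha1, Pdhb, Dlat, Dld, Pdhx), its kinases Pdk1 to Pdk4 and phosphatases Pdp1 and Pdp2, pyruvate carboxylase (Pcx), the cycle enzymes Cs, Idh2, Idh3a, Idh3b, Idh3g, Ogdh, Dlst, Suclg1, Suclg2, Sucla2, Fh1 and Mdh2, and the cytosolic and mitochondrial partners Mdh1, Got1, Got2 and Glud1. Their RNA was measured in 28 mouse libraries of 8 groups. LLC is a mouse lung carcinoma line, here of wild-type genotype, BAY-876 inhibits the glucose transporter GLUT1, and the cytokine TNF activates NF-kappaB signalling. At 36 h, 3 libraries came from cells kept in vehicle and 3 from cells kept in 200 nM BAY-876. In the 32 h experiment LLC cells received nothing or 200 nM BAY-876 for 24 h and then nothing or 20 ng/ml TNF for 32 h. This gave control, BAY-876, TNF and combination groups of 3 libraries each, and whether the inhibitor stayed on is not stated. On day 16, tumour cells (5 libraries) and OT1 T cells (5 libraries) were sorted from subcutaneous LLC tumours that carried ovalbumin and NGFR. The hosts were Rag1 knockout mice, which lack mature T and B lymphocytes, and OT1 cells, which recognise an ovalbumin peptide, had been activated and transferred on day 9. The labels do not tie libraries to separate cultures or animals, and p-values therefore reflect only the spread over these libraries, part or all of which may be technical.

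Pyruvate made by glycolysis crosses the inner mitochondrial membrane through the Mpc1 and Mpc2 carrier. The dehydrogenase complex then turns it into acetyl-CoA, a step that the Pdk kinases switch off by phosphorylation and the Pdp phosphatases switch on again, whereas Pcx turns pyruvate into oxaloacetate. Citrate synthase joins both products to start the cycle, glutamate enters as 2-oxoglutarate through Glud1 or the aminotransferases, and the Mdh and Got pairs of cytosol and mitochondrion form the malate-aspartate shuttle.

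Promoter sequence, 250 bases before to 50 after an annotated start in RefSeq on GRCm38.p6, was found for 28 of the 30 genes, in 37 windows. Motifs were searched on both strands. The amino acid response element (CARE) TGATGNAA, which ATF4 binds, stood in 3.97% of all 32851 windows and among the members in that of Got1 alone. The E-box CACGTG stood in 7.15% of all windows and in those of Ogdh, Pcx, Pdk2 and Pdp2. The NF-kappaB consensus stood in 8.46% of all windows and in those of Dlst, Got1, Idh2, Ogdh, Pdha1, Pdk2, Sucla2 and Suclg2. Sequence upstream of the start is shown for Got1 and Pcx, which rose with BAY-876, and for Dlst, which rose with TNF, with the motif match in capitals and each ending at the base before the start. Of the other genes with the NF-kappaB consensus, Got1 was called higher with TNF, Idh2 lower and Pdha1, Ogdh, Sucla2 and Suclg2 not called. Dlat, Mdh2 and Got2 rose with TNF and held no match to it. Of the other genes with an E-box, Ogdh was called lower with BAY-876 at 32 h and Pdp2 was not called. The CARE match of Got1 lies on the minus strand of the gene and the NF-kappaB match of Dlst on the plus strand of its gene. The E-box of Pcx reads the same on both strands. The stretches are chr19:43524606-43524767 (minus strand, Got1 at chr19:43499752-43524605), chr19:4510222-4510471 (plus strand, Pcx at chr19:4510472-4621752) and chr12:85110583-85110832 (plus strand, Dlst at chr12:85110833-85134845).
Got1: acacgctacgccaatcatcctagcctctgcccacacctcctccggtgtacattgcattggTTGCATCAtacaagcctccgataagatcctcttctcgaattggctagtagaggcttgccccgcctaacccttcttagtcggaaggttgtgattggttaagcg
Pcx: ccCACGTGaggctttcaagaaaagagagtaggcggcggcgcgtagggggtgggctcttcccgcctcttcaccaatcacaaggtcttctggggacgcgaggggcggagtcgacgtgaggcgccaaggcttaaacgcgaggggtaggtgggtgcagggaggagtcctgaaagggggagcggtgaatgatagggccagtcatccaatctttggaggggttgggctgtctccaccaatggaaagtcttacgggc
Dlst: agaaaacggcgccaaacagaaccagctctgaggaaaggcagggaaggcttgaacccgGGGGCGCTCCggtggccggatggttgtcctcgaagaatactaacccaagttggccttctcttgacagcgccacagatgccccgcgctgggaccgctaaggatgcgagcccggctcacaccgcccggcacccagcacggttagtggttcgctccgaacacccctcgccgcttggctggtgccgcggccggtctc
Counted from the start, with -1 the base before it, the matches begin at -102 in Got1, -248 in Pcx and -193 in Dlst. They describe the letters of these windows only and are no evidence that a factor binds.

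The 36 h table holds normalized counts, which summed to 16847994 to 17134536 per library, and the other tables hold length-scaled transcript levels (TPM). Sequencing depth cannot be read from either kind of value. Transcripts of the mitochondrial genome took 2.61 to 6.93% of the values. Of 8 T cell markers Cd3e, Cd3d and Cd2 were at 0 in all 18 culture libraries. The sum of the list was 0.0592 to 1.4 TPM at 32 h. At 36 h it was 4.3 to 22.1 normalized counts with vehicle and 6.27 to 12.7 with BAY-876. All 6 LLC tumour cell markers were detected in the culture libraries. At 32 h the summed TPM of those 6 markers was 1095 to 1172 in control, 889 to 913 with BAY-876, 607 to 642 with TNF and 427 to 438 with the combination. LLC cells also express genes of a fibroblast list. Of its 6 genes, 4 reached 1 TPM in any control library at 32 h and 3 in each of the other groups there. None was at 0 in all libraries of a group. The list summed to 829 to 863 TPM in control and with BAY-876 and to 300.2 to 423 in the 2 groups with TNF. At 36 h the same list summed to 16638 to 17696 normalized counts with vehicle and 21353 to 23018 with BAY-876. Of 4 natural killer markers Ncr1, Klrb1c and Klra8 were at 0 in the culture libraries, and the sum of the list was 81.9 to 103.6 with vehicle and 60.4 to 74.3 with BAY-876. The part of these shifts in the results below was not tested.

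Of the 30 members, 28 passed the filter on low values in each table. Pdk2 and Pdk4 did not. At 32 h Pdk2 was listed at 0 in all 12 libraries and Pdk4 ranged from 0.0222 to 0.522 TPM. At 36 h Pdk2 was 0, 0 and 0.956 normalized counts with vehicle and 0, 0 and 0 with BAY-876, and Pdk4 was 0, 0 and 0.484 and 0, 12.6 and 0.51, so a single BAY-876 library held nearly all of its signal. Pdk1 and Pdk3 therefore made up nearly all kinase RNA of these cells. In the 32 h control cells Mdh2 had the highest level of the members at 266 ± 7.37 TPM (SD, n = 3), followed by Cs (244 ± 8.63), Got2 (229.5 ± 6.5), Glud1 (212 ± 8.39) and Idh3g (193 ± 21.7). Neighbours in this order lay close: the libraries of Mdh2 and Cs did not overlap, whereas those of Cs and Got2 did. Summed over the members, TPM was 2856 ± 36.4 in control, 2848 ± 55.5 with BAY-876, 2993 ± 45.5 with TNF and 3017 ± 90 with the combination. By library the sum was 2814 to 2883 TPM in control and 2797 to 2907 with BAY-876. It was 2945 to 3036 with TNF and 2931 to 3110 with the combination. All libraries that received TNF thus lay above all that did not, while single members moved in both directions.

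BAY-876 alone at 36 h changed few of these genes. Pcx and Mdh1 rose and no member fell among 28 tested, 2 called at a limma adjusted p under 0.05, where 14.4% of all 12937 genes tested were called (7.34% higher, 7.1% lower). Pcx was 525, 550.3 and 517 normalized counts in the vehicle libraries and 727, 715 and 738 with BAY-876, higher by 36.9% (log2 fold change 0.45, SE 0.072, limma adjusted p = 0.00556). All 3 treated libraries lay above all vehicle libraries. Mdh1, the cytosolic malate dehydrogenase, was 1936, 1946 and 2000.4 with vehicle and 2648, 2146 and 2363 with BAY-876, again without overlap (log2 fold change 0.28, SE 0.077, limma adjusted p = 0.0428). Dlst, the E2 subunit of the 2-oxoglutarate dehydrogenase complex, did not pass at 2693, 2733 and 2566 against 2364, 2423 and 2246 (log2 fold change -0.18, SE 0.056, limma adjusted p = 0.0562). The carrier subunit Mpc1 was 807, 794 and 833 normalized counts with vehicle and 1046, 867 and 967 with BAY-876 (limma adjusted p = 0.0835), and Mpc2 was 380.2, 371 and 340 and 528, 353 and 499. The kinases did not differ beyond their spread: Pdk1 was 4431, 4564 and 4636 against 4288, 4569 and 5072, and Pdk3 1032, 1009 and 1087 against 1134, 1043 and 999. The median log2 fold change was 0.026 over the members and -0.0012 over all genes. The libraries of the 2 groups did not overlap for 11 of the 28 members and for 36.7% of all genes. After median centring, an alternative chosen after seeing the data, Dlst also fell, so that 2 rose and 1 fell (6.66% and 8.12% of all genes). Mdh1 lost its call without BAY-876 library 3 or any single vehicle library (highest adjusted p = 0.128), and without BAY-876 library 2 the carrier genes Mpc1 and Mpc2 were called higher too. Leaving out BAY-876 library 1 called Suclg2 higher and Dlst lower, and leaving out library 3 called Pdhb higher.

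At 32 h many more members passed in every comparison between 2 groups, in a set of tables where the treatments moved a large share of all genes. The fit at 32 h held 12 libraries and that at 36 h 6, so their counts are not directly comparable. BAY-876 raised 3 and lowered 10 of the 28 tested (11.5% and 25.8% of all 12780 genes), and TNF raised 8 and lowered 6 (19.4% and 26.1%). The combination against control raised 8 and lowered 9 (20.9% and 37.9%). Against BAY-876 alone it raised 8 and lowered 7 (19.3% and 24.8%), and against TNF alone it raised 6 and lowered 11 (10.4% and 23.6%). These comparisons share libraries, so each is given by its own values. Median log2 fold changes over the members and over all genes were -0.050 and -0.089 for BAY-876, 0.060 and -0.058 for TNF, and 0.0060 and -0.13 for the combination against control. Against control, groups did not overlap for 18 members with BAY-876, 25 with TNF and 18 with the combination (50.9%, 55.9% and 63% of all genes). For the combination these were 17 members against BAY-876 (52.6%) and 20 against TNF (45%).

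The counts depended on scaling. Quantile normalization moved the median log2 fold change of all genes by 0.085 for BAY-876, 0.071 for TNF and 0.15 for the combination against control, and median centring by 0.092, 0.083 and 0.18. After quantile normalization 7 members were higher and 6 lower with BAY-876 (17.5% and 18% of all genes), 7 and 9 with TNF (22.5% and 21.5%), and 12 and 9 with the combination against control (28.8% and 27.4%). The combination had 8 and 10 against BAY-876 (22.3% and 21%) and 8 and 6 against TNF (14.6% and 16%). Median centring, chosen after seeing the data, gave 10 and 5 with BAY-876 (18.1% and 16.6%), 14 and 6 with TNF (26% and 20.5%) and 14 and 4 with the combination against control (32.5% and 25.6%). It gave 10 and 6 for the combination against BAY-876 (26.3% and 19.1%) and 10 and 6 against TNF (16.9% and 14.8%). In the authors' deposited tables, which have their own scaling, 10 members were higher and 5 lower with BAY-876 (16.3% and 15.3% of the genes listed) and 14 and 6 with TNF (19.7% and 17.4%). In the authors' deposited tables of the combination, 9 and 6 differed from BAY-876 (19.1% and 17.3%) and 8 and 5 from TNF (14.4% and 13.4%). No member was called in opposite directions by limma and by these tables. The calls lost under at least 1 of the other scalings were the decreases of Dlat, Cs, Ogdh, Dlst and Got2 with BAY-876, the rises of Dld, Idh3b and Got1 with TNF, and the decrease of Mpc2 in the combination against BAY-876. For the combination they were also the decreases of Idh3a, Ogdh, Dlst, Suclg1 and Sucla2 against TNF, and those of Pdha1, Pdk1, Cs, Ogdh and Fh1 against control. All other calls of these 5 comparisons held under the 3 scalings. Both other scalings added as higher Pdhb, Suclg2 and Mdh2 with BAY-876, Pdp2 and Sucla2 with TNF, Idh3b and Suclg2 in the combination against TNF, and Pdp2, Pcx, Dlst and Suclg2 in the combination against control.

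**Figure D1:**
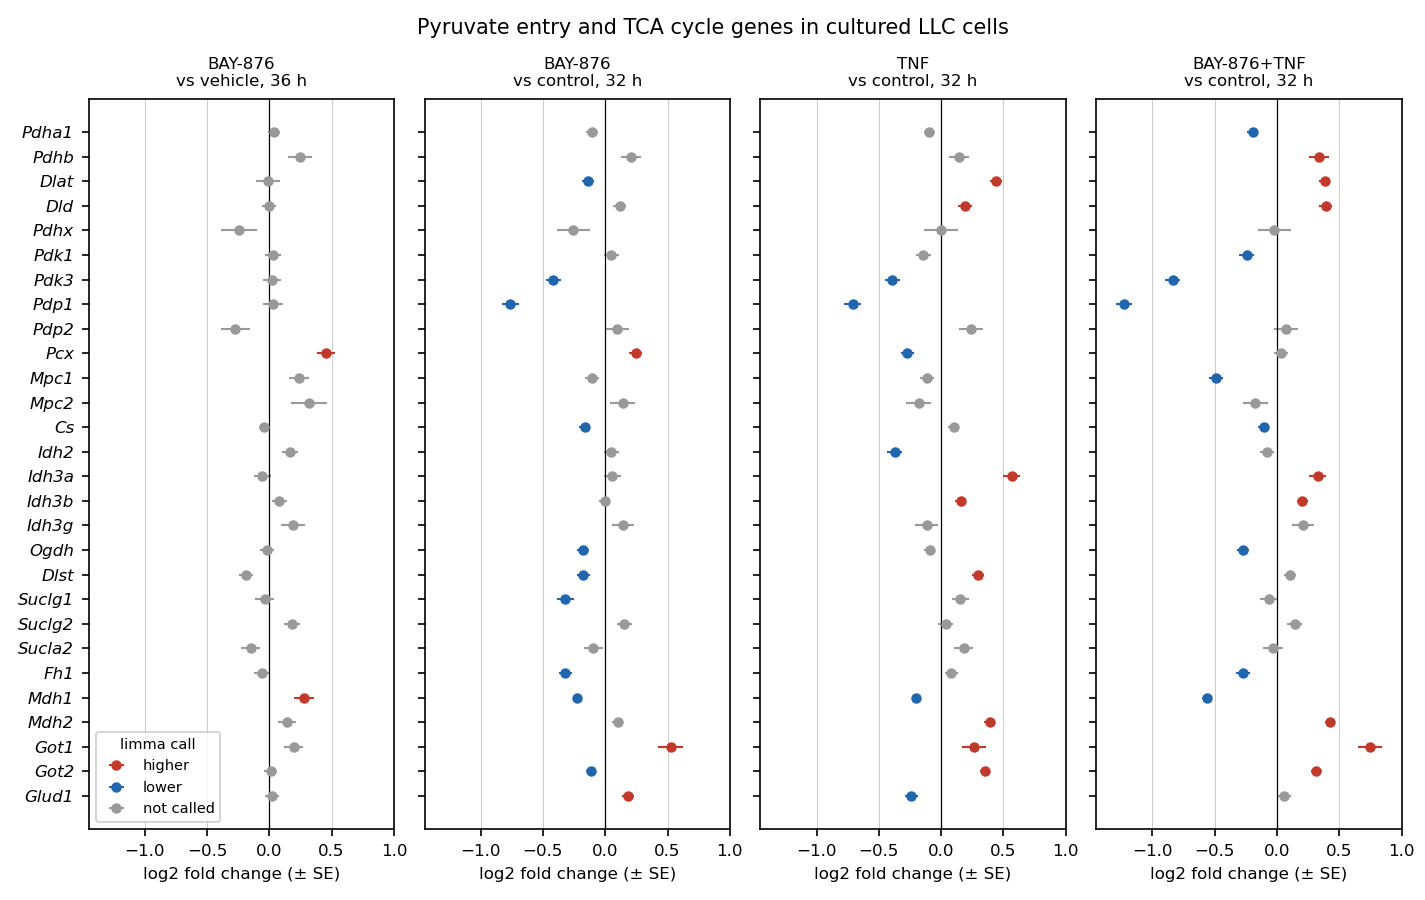
Log2 fold change (x axis, bars are SE) of the 28 members tested (y axis) for BAY-876 against vehicle at 36 h and for BAY-876, TNF and the combination against control at 32 h; red points were called higher, blue points lower and grey points not called by limma. Pdp1 and Pdk3 lie left of 0 in the 3 panels at 32 h and near 0 at 36 h, and Got1 lies right of 0 in all 4 panels.

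Among the regulators of pyruvate dehydrogenase, Pdp1 and Pdk3 had the 2 largest decreases of all members in each of the 5 comparisons between groups at 32 h. After quantile normalization this order did not hold with TNF, where Idh2 fell more than Pdk3 (log2 fold changes -0.43 and -0.39). Nor did it hold then in the combination against BAY-876, with Mpc1 at -0.44, Pdk3 at -0.39, Mdh1 at -0.39 and Pdp1 at -0.36. Pdp1, the main phosphatase that activates the complex, was 30.5, 31.1 and 30.5 TPM in control, 17.4, 17.4 and 18.4 with BAY-876, 18.7, 16.9 and 19.7 with TNF and 11.7, 13.1 and 12.9 with the combination. Each treated group lay below control in every library, and the combination lay below both single treatments. Pdp1 fell by 42.4% with BAY-876 (log2 fold change -0.76, SE 0.068, limma adjusted p = 1.07e-05), fell by 40% with TNF (log2 fold change -0.71, SE 0.068, limma adjusted p = 5.96e-06) and fell by 59.1% with the combination (log2 fold change -1.23, SE 0.068, limma adjusted p = 3.19e-08). The authors' deposited tables give log2 fold changes of -0.69 (SE 0.087, adjusted p = 6.25e-14) for BAY-876 and -0.66 (SE 0.098, adjusted p = 1.45e-10) for TNF. Pdp2, the other phosphatase, was 5.6, 5.39 and 5.9 TPM in control, 6.74, 5.48 and 6.05 with BAY-876, 6.91, 7.15 and 6.39 with TNF and 6.24, 6.35 and 5.31 with the combination. The TNF libraries were all above control, and Pdp2 was not called (log2 fold change 0.24, SE 0.097, limma adjusted p = 0.0649), whereas both other scalings and the authors' deposited table called it higher with TNF, the table at a log2 fold change of 0.35 (SE 0.12, adjusted p = 0.00896). Both other scalings also called it higher with the combination against control, and quantile normalization with BAY-876.

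Pdk3, a kinase that inactivates the complex, fell alongside the phosphatase that opposes it. Its TPM was 55, 50.2 and 51.2 in control, 38, 41.3 and 37.1 with BAY-876, 41.2, 38.7 and 38.5 with TNF and 30.1, 28.9 and 27.2 with the combination, so the libraries of the combination were the lowest. The changes were -25.6% with BAY-876 (limma adjusted p = 2.86e-04), -24.3% with TNF (limma adjusted p = 2.53e-04) and -44.9% with the combination (log2 fold change -0.84, SE 0.06, limma adjusted p = 2.97e-07). Pdk1, the kinase with the highest level, was 74.9, 76.9 and 74.2 TPM in control, 82, 75.6 and 76.2 with BAY-876, 69.3, 66.8 and 68.3 with TNF and 70.1, 62.4 and 58.6 with the combination. It fell when TNF was added to BAY-876 (log2 fold change -0.29, SE 0.06, limma adjusted p = 0.00217), and its decrease against control (log2 fold change -0.24, SE 0.06, limma adjusted p = 0.00452) was not called after median centring. Pdk1 was not called with either single treatment. With BAY-876 it was higher after median centring (log2 fold change 0.14, limma adjusted p = 0.041). The authors' deposited table also called it higher (0.15, SE 0.053, adjusted p = 0.0175). With TNF it was lower after quantile normalization (-0.16, limma adjusted p = 0.0275) and in a fit of only these groups (-0.14, limma adjusted p = 0.021). The calls of Pdp1 and Pdk3 held under all 3 scalings in all 5 comparisons between groups at 32 h, with the 2 genes lower in each.

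The subunits of the pyruvate dehydrogenase complex did not move as a block. Dlat, its acetyltransferase core, was 30.9, 29.1 and 28.6 TPM in control and 26.1, 26.9 and 27.1 with BAY-876, but 39.8, 41.2 and 40.5 with TNF and 39.9, 38 and 38.4 with the combination. All TNF-treated libraries lay above all others, and Dlat rose by 37.1% with TNF (log2 fold change 0.44, SE 0.047, limma adjusted p = 1.52e-05) and by 45.2% when TNF was added to BAY-876 (limma adjusted p = 4.14e-06), under all 3 scalings. Its small decrease with BAY-876 (log2 fold change -0.14, SE 0.047, limma adjusted p = 0.0365) was lost under both other scalings and without any of 5 single libraries of the 6 compared, all but control 3 (highest adjusted p = 0.134). Dld, the dehydrogenase subunit shared with the 2-oxoglutarate complex, was 145, 147 and 139 TPM in control, 150.4, 157 and 161 with BAY-876, 163, 166 and 163 with TNF and 207, 179 and 180.5 with the combination, its highest level (log2 fold change 0.39, SE 0.053, limma adjusted p = 5.88e-05 against control). With BAY-876 alone Dld was not called, nor after quantile normalization (limma adjusted p = 0.0651). It was higher after median centring (log2 fold change 0.21, limma adjusted p = 0.00444) and in the authors' deposited table (0.22, SE 0.049, adjusted p = 7.56e-05). Pdhb, the E1 beta subunit, rose with the combination by 27.5% (log2 fold change 0.34, SE 0.08, limma adjusted p = 0.00318) under all 3 scalings. Its combination libraries were widely spread, from 189 to 243 TPM (mean 207, SD 31.1). With single libraries left out the log2 fold change was 0.22 to 0.40, called each time (highest adjusted p = 0.014). With BAY-876 alone Pdhb was 191, 191 and 181 TPM against 157, 163 and 168 in control, without overlap. That difference was not called (log2 fold change 0.21, SE 0.08, limma adjusted p = 0.0625), but it was under both other scalings, with the replicate block, in a fit of only these groups and in the authors' deposited table (log2 fold change 0.31 (SE 0.065, adjusted p = 2.00e-05)). Its partner Pdha1, E1 alpha, fell by 12.7% (log2 fold change -0.20, SE 0.046, limma adjusted p = 0.00307), a call that median centring removed (log2 fold change -0.019). Pdhx, which tethers Dld, ranged from 12.6 to 21.1 TPM over the 12 libraries and was not called.

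At the branch where pyruvate enters, Pcx rose with BAY-876 and fell with TNF, and the carrier gene Mpc1 fell with the combination. Pcx was 32.1, 31.3 and 33.1 TPM in control, 39.2, 37.5 and 38.2 with BAY-876, 28.1, 25.6 and 25.8 with TNF and 34.5, 32.9 and 31.5 with the combination. BAY-876 libraries were all above control, TNF libraries all below, and combination libraries overlapped control. Pcx rose by 19% with BAY-876 (log2 fold change 0.24, SE 0.054, limma adjusted p = 0.00451), fell by 17.6% with TNF (log2 fold change -0.27, SE 0.054, limma adjusted p = 0.00164) and was 24.4% higher in the combination than with TNF alone (limma adjusted p = 0.00131). Mpc1 was 97.3, 96.6 and 104 TPM in control, 84.1, 94.2 and 99 with BAY-876, 91.8, 89.6 and 93.1 with TNF and 68.4, 71.1 and 71.5 with the combination. Its combination libraries lay below every other library, and it fell by 29.2% against control (log2 fold change -0.49, SE 0.057, limma adjusted p = 1.54e-05). Mpc1 was not called with TNF alone (limma adjusted p = 0.115), except after quantile normalization (adjusted p = 0.0493). Mpc2 was 50.8, 48.2 and 56.4 TPM in control, 54.4, 58.8 and 58.1 with BAY-876, 41.8, 48.1 and 46.9 with TNF and 39.3, 45.3 and 53.4 with the combination. Mpc2 was called lower in the combination against BAY-876 (log2 fold change -0.32, SE 0.1, limma adjusted p = 0.0228), a call that was lost after median centring and without BAY-876 library 2 or 3 or combination library 1 or 2 (highest adjusted p = 0.0874). Without combination library 3 it was also called lower in the combination against control (log2 fold change -0.29, limma adjusted p = 0.0173).

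**Figure D2:**
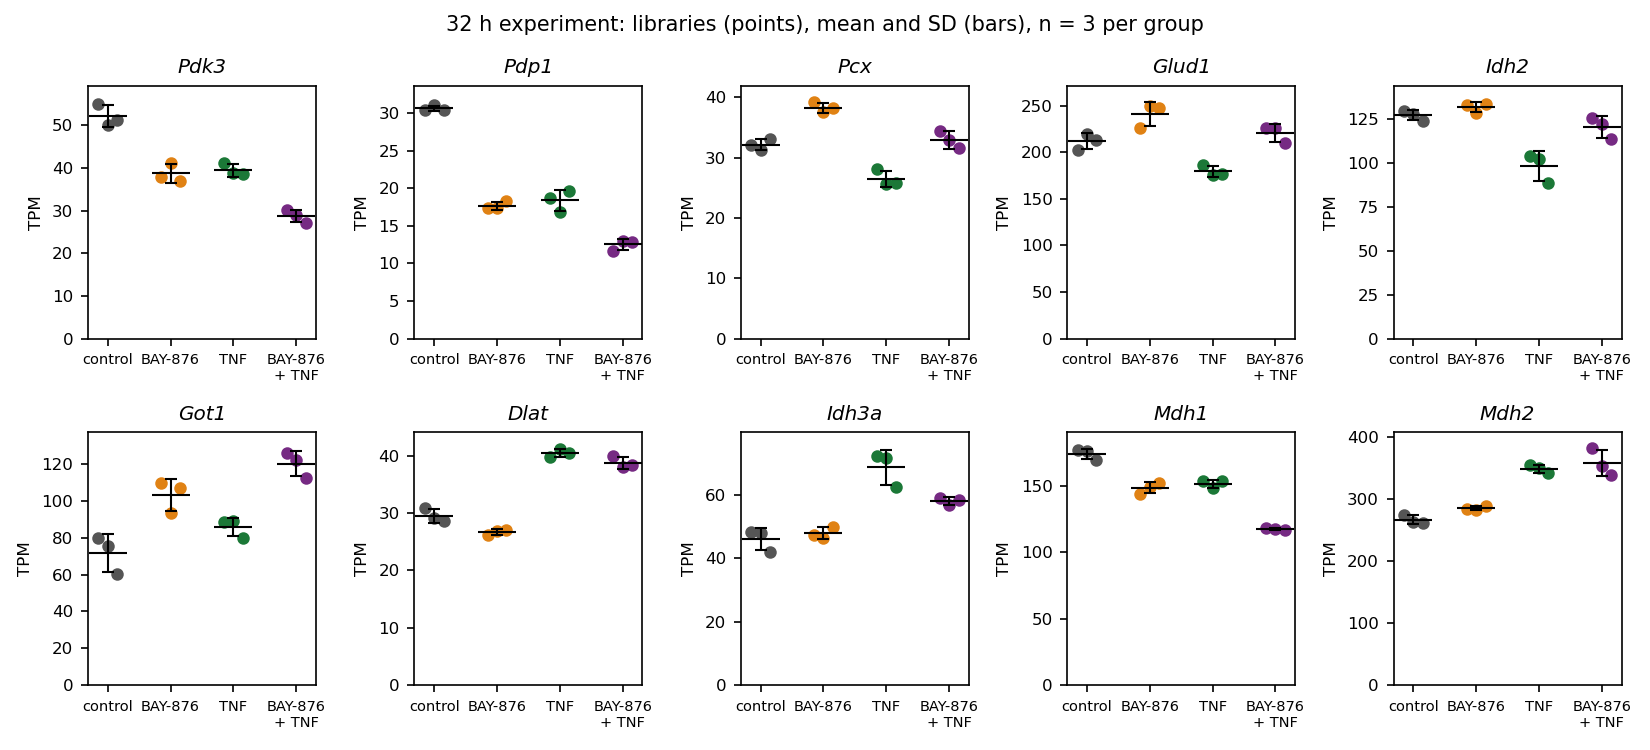
TPM (y axis, from 0) of 10 members in the 12 libraries of the 32 h experiment; points are libraries and bars mark the mean and SD of 3 libraries per group. Pdk3, Pdp1 and Mdh1 are lowest in the combination, Got1 is highest there, and Dlat, Idh3a and Mdh2 are higher in the 2 groups that received TNF.

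In the cycle itself, TNF raised Idh3a of the NAD-dependent isocitrate dehydrogenase and lowered the NADP-dependent Idh2. Idh3a, the catalytic subunit of the NAD-dependent enzyme, was 48.4, 48 and 42 TPM in control, 47.3, 46.6 and 50 with BAY-876, 72.3, 71.6 and 62.4 with TNF and 58.9, 56.7 and 58.6 with the combination. It rose by 49.1% with TNF (log2 fold change 0.57, SE 0.068, limma adjusted p = 3.94e-05). The combination libraries lay between the BAY-876 and the TNF libraries, and the difference from TNF (log2 fold change -0.24, SE 0.068, limma adjusted p = 0.019) was lost under both other scalings and without TNF library 1 or 2 or combination library 2 (highest adjusted p = 0.0725). Idh3b, a regulatory subunit, rose by 15.1% with the combination (limma adjusted p = 0.00164), and its rise with TNF was lost after quantile normalization. Idh3g, the other regulatory subunit, was 217, 186 and 175 TPM in control, 218, 189 and 230.2 with BAY-876, 179, 178 and 173 with TNF and 243, 207 and 216 with the combination, and was called for the combination against TNF (log2 fold change 0.32, SE 0.089, limma adjusted p = 0.015), a call lost without combination library 1 (adjusted p = 0.059). Against control the combination was not called (log2 fold change 0.21, SE 0.089, limma adjusted p = 0.064), but it was higher after median centring (adjusted p = 0.00187), with the replicate block (adjusted p = 0.0363), without control library 1 (adjusted p = 0.0125) and without combination library 2 (adjusted p = 0.0457). With BAY-876 alone Idh3g was called higher after median centring and in the authors' deposited table. Idh2, the mitochondrial NADP-dependent enzyme, was 129.8, 128 and 124 TPM in control, 133, 129 and 134 with BAY-876, 104, 102 and 88.9 with TNF and 126, 122 and 114 with the combination. The TNF libraries stood below all others, with a change of -22.8% against control (log2 fold change -0.37, SE 0.059, limma adjusted p = 3.09e-04), and the combination was 22.6% above TNF alone (limma adjusted p = 0.00265), both under all 3 scalings.

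Between 2-oxoglutarate and malate, Suclg1 and Fh1 fell with BAY-876 and Dlst rose with TNF. Dlst, the core of the 2-oxoglutarate dehydrogenase complex, was 81.5, 79.4 and 80.3 TPM in control, 76, 67.1 and 70.5 with BAY-876, 100.3, 101 and 95.8 with TNF and 85.4, 84.6 and 90 with the combination. It rose by 23.2% with TNF (log2 fold change 0.30, SE 0.049, limma adjusted p = 4.17e-04) under all 3 scalings. Its decrease with BAY-876 (log2 fold change -0.18, SE 0.049, limma adjusted p = 0.0154) was lost under both other scalings and without BAY-876 library 2 (adjusted p = 0.0644). Suclg1, the shared alpha subunit of succinyl-CoA ligase, was 92.6, 96.9 and 98.1 TPM in control, 81.5, 71.4 and 77.2 with BAY-876, 102, 106 and 112 with TNF and 92.7, 82.8 and 99.7 with the combination. It fell by 19.9% with BAY-876 (log2 fold change -0.32, SE 0.068, limma adjusted p = 0.00359) and was 19.6% higher with the combination than with BAY-876 (limma adjusted p = 0.0104), both under all 3 scalings. Fh1, fumarase, was 71.2, 71.5 and 68.3 TPM in control, 52.1, 55.2 and 61.5 with BAY-876, 75.2, 74.9 and 73.4 with TNF and 57.9, 57 and 59.4 with the combination. Both groups that received BAY-876 lay below both groups that did not, with a change of -19.9% without TNF (log2 fold change -0.32, SE 0.055, limma adjusted p = 9.51e-04) and of -22.1% with it (log2 fold change -0.35, SE 0.055, limma adjusted p = 5.55e-04). Ogdh, the first subunit of the 2-oxoglutarate complex, fell in 3 comparisons and Cs, citrate synthase, in 3. The change of Ogdh against control was -11.7% with BAY-876 and -17.4% with the combination, neither called after median centring. Cs held all 3 scalings only in the combination against TNF (log2 fold change -0.21, SE 0.043, limma adjusted p = 0.003), and its decrease against control with the combination (log2 fold change -0.11, SE 0.043, limma adjusted p = 0.0474) turned to a log2 fold change of 0.068 after median centring. That call was also lost without control library 1 or 2 or combination library 2 or 3. With TNF Cs was 256 to 265 TPM against 235 to 252.5 in control, without overlap, and was not called. Median centring called it higher (log2 fold change 0.18, limma adjusted p = 8.04e-04), and quantile normalization did not (0.015). The authors' deposited table called it higher with TNF (0.18, SE 0.04, adjusted p = 5.45e-05). In the combination against BAY-876 median centring called Cs higher (0.14, limma adjusted p = 0.00442).

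Of the malate dehydrogenases of the malate-aspartate shuttle, the cytosolic Mdh1 fell and the mitochondrial Mdh2 rose with TNF and with the combination. Mdh1 was 177, 176 and 169.9 TPM in control, 144, 149 and 153 with BAY-876, 154, 148 and 154 with TNF and 119, 117 and 117 with the combination. It fell by 14.7% with BAY-876 (log2 fold change -0.23, SE 0.034, limma adjusted p = 3.62e-04), fell by 12.9% with TNF (limma adjusted p = 5.80e-04) and fell by 32.6% with the combination (log2 fold change -0.57, SE 0.034, limma adjusted p = 6.75e-08). Mdh2 was 275, 263 and 261 TPM in control, 284, 283 and 289 with BAY-876, 355, 349.8 and 342 with TNF and 382, 353 and 339 with the combination. It rose by 31% with TNF (log2 fold change 0.39, SE 0.042, limma adjusted p = 1.51e-05) and by 34.5% with the combination (limma adjusted p = 3.85e-06). With BAY-876 alone the Mdh2 libraries all lay above control, but the difference was not called. It was called under both other scalings and in a fit of only these groups. The authors' deposited table also called it higher (log2 fold change 0.20, SE 0.047, adjusted p = 1.8e-04). Within each library the ratio of Mdh2 to Mdh1 was 1.49 to 1.55 in control, 1.89 to 1.97 with BAY-876, 2.23 to 2.36 with TNF and 2.91 to 3.22 with the combination, with no overlap between groups. A common factor per library leaves this ratio as it is.

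Among the aminotransferases the cytosolic Got1 rose with BAY-876, the mitochondrial Got2 rose with TNF, and both were higher in the combination than in control. Got1 was 79.7, 75.6 and 60.3 TPM in control, 109.6, 93.3 and 107 with BAY-876, 88.4, 89.1 and 80.1 with TNF and 126, 122 and 113 with the combination. It rose by 43.7% with BAY-876 (log2 fold change 0.52, SE 0.098, limma adjusted p = 0.00152) and by 67.5% with the combination (log2 fold change 0.74, SE 0.098, limma adjusted p = 4.29e-05) under all 3 scalings. Its rise with TNF (log2 fold change 0.26, SE 0.098, limma adjusted p = 0.0463) was lost after quantile normalization and without control library 3 or TNF library 1 or 2 (highest adjusted p = 0.177). Control library 3 was the lowest of the 12. The rise of Got1 with TNF was called after median centring (log2 fold change 0.34, limma adjusted p = 0.00752). The authors' deposited table called it too (0.33, adjusted p = 0.00209). Got1 was not called in the combination against BAY-876, nor after quantile normalization. It was higher there after median centring (0.31, limma adjusted p = 0.0146) and in a fit of only these groups. The authors' deposited table gave 0.28 (adjusted p = 7.19e-04). Got2 was 228, 224 and 237 TPM in control, 219, 205 and 212 with BAY-876, 303, 293 and 284 with TNF and 295, 290.2 and 273 with the combination, a rise of 27.7% with TNF (log2 fold change 0.35, SE 0.041, limma adjusted p = 3.14e-05). Its decrease with BAY-876 (log2 fold change -0.11, SE 0.041, limma adjusted p = 0.0468) was lost under both other scalings and without any of 5 single libraries of the 6 compared, all but BAY-876 library 1 (highest adjusted p = 0.155). The Got2 to Got1 ratio was 2.86 to 3.93 in control and 3.29 to 3.54 with TNF, against 1.98 to 2.2 with BAY-876 and 2.34 to 2.43 with the combination. Glud1, glutamate dehydrogenase, was 202, 219 and 213 TPM in control, 226, 249.9 and 247 with BAY-876, 186, 175 and 176 with TNF and 226, 225 and 209.9 with the combination. It rose with BAY-876 (log2 fold change 0.19, SE 0.05, limma adjusted p = 0.0123) and fell with TNF (log2 fold change -0.24, SE 0.05, limma adjusted p = 0.00209) under all 3 scalings. The rise missed the threshold without control library 1 or BAY-876 library 2 (highest adjusted p = 0.0522).

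Whether the response to BAY-876 differed with TNF was tested by the interaction, the fold change with TNF minus that without. No member passed in the limma fit (adjusted p under 0.05), where 1.56% of all genes did. At an unadjusted p under 0.05 there were 5 members, Idh2, Idh3a, Mdh1, Mpc1 and Pdp1, of 28 tested, against 14.9% of all genes. The lowest adjusted p was that of Mpc1 (log2 fold change -0.27, SE 0.08, limma adjusted p = 0.135), and without BAY-876 library 1 this gene was called (adjusted p = 0.0415). The interaction of Pdp1 was 0.24 (limma adjusted p = 0.262) and that of Mdh1 was -0.14 (limma adjusted p = 0.198) on the log2 scale. Quantile normalization and median centring also left no member called.

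The 36 h and 32 h experiments share no library, and both compare BAY-876 with cells that did not receive it, vehicle at 36 h and untreated control at 32 h, and exposure and time differ. Of the 28 members tested in both, 18 had the same sign of the log2 fold change (64.3%), and 20 after median centring (71.4%). Over all 12086 genes tested in both the shares were 56.7% and 57.5%. Pcx was called higher in both, by 0.45 at 36 h and 0.24 at 32 h on the log2 scale. Got1 was 0.19 at 36 h (limma adjusted p = 0.12) and 0.52 at 32 h. Mdh1 was called in both with opposite signs, 0.28 and -0.23. Its call at 36 h was lost with the replicate block and without any of 4 single libraries. Pdp1, the largest decrease at 32 h, was 532, 539 and 524 normalized counts with vehicle and 562, 512 and 556 with BAY-876 at 36 h (log2 fold change 0.03, SE 0.078, limma adjusted p = 0.834). The difference between the experiments was not tested.

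Shares of isoforms within a library do not change when a library is multiplied by a common factor. Pdp1 made up 84.5 ± 0.72% of summed phosphatase TPM in control (SD, n = 3), 74.4 ± 2.09% with BAY-876, 72.9 ± 2.59% with TNF and 67.7 ± 2.87% with the combination. Control libraries stood above all others. Pdk1 took 59 ± 1.44% of the TPM of the 4 kinases in control, 66.7 ± 1.88% with BAY-876, 63.2 ± 0.463% with TNF and 68.8 ± 0.969% with the combination, with Pdk3 taking nearly all the rest. Summed kinase TPM per summed phosphatase TPM was 3.45 to 3.6 in control, 4.64 to 5.12 with BAY-876, 4.12 to 4.39 with TNF and 4.71 to 5.6 with the combination. Every treated library lay above every control library. Suclg2, the GDP-forming beta subunit of succinyl-CoA ligase, took 60.2 to 61.9% of the sum with the ADP-forming Sucla2 in control, 63.8 to 66.7% with BAY-876, 55.9 to 61.5% with TNF and 62.1 to 66.4% with the combination.

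**Figure D3:**
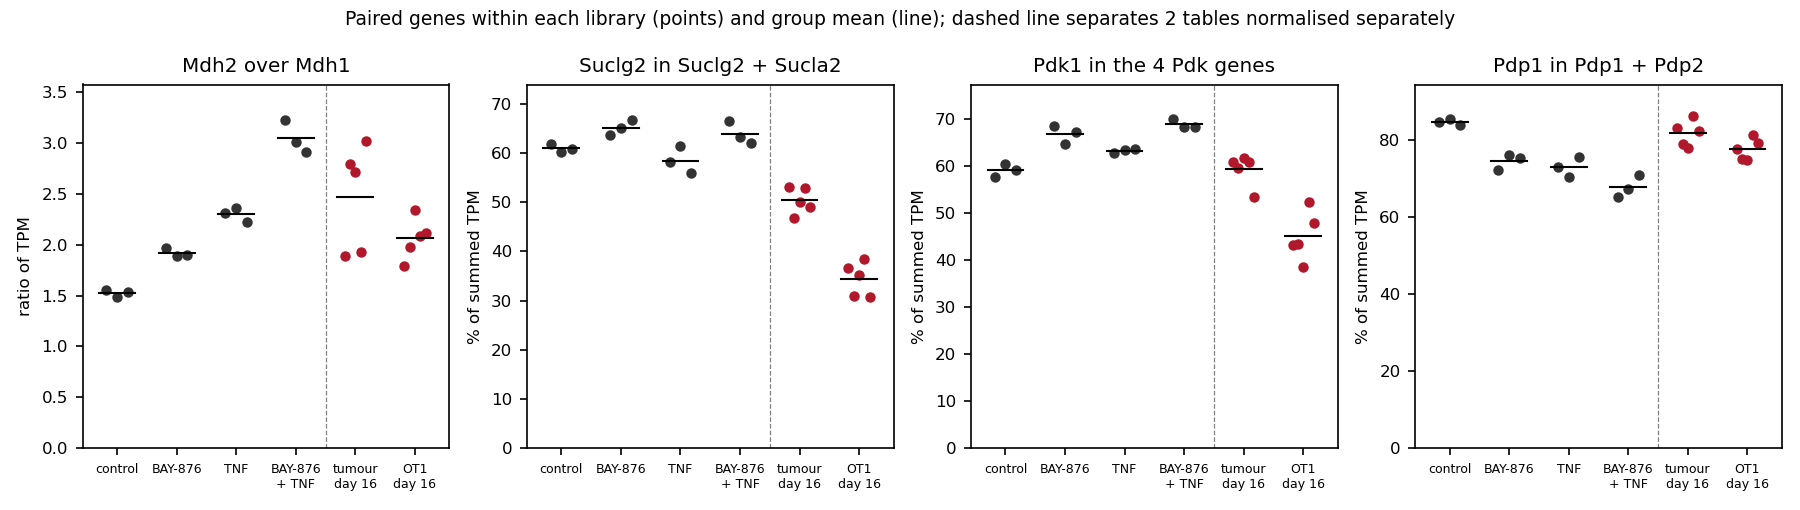
Ratio of Mdh2 to Mdh1 TPM and shares (% of summed TPM) of Suclg2, Pdk1 and Pdp1 in their isoform sets (y axes, from 0) in 4 groups at 32 h (grey points) and 2 groups on day 16 (red points), with the group mean as a line; the dashed line parts 2 tables that were normalised separately. Mdh2 over Mdh1 is 1.49 to 1.55 in control and 2.91 to 3.22 with the combination, and the Suclg2 share is at most 38.5% in the OT1 cells.

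Beyond the 30 members, a list of 36 names of neighbouring enzymes and carriers was read in the same fits, of which 35 were found and 32 passed the filter. In these, 7 rose and 2 fell with BAY-876 at 36 h (7.34% and 7.1% of all genes), 8 and 11 with BAY-876 at 32 h (11.5% and 25.8%), 7 and 12 with TNF (19.4% and 26.1%), and 9 and 12 with the combination against control (20.9% and 37.9%). The combination had 5 higher and 8 lower against BAY-876 (19.3% and 24.8%), and 8 and 12 against TNF (10.4% and 23.6%). At 32 h the other scalings gave 11 and 9 with BAY-876 under either, 8 and 10 (quantile) or 10 and 10 (median centring) with TNF, and 11 and 10 or 11 and 9 with the combination against control. They gave 6 and 5 or 8 and 5 for the combination against BAY-876, and 9 and 6 or 10 and 6 against TNF. Pck2, the mitochondrial PEP carboxykinase that takes oxaloacetate out of the cycle, rose with BAY-876 at 36 h (1523 ± 184 against 752 ± 61.1 normalized counts, log2 fold change 1.01, SE 0.1, limma adjusted p = 7.25e-04) and at 32 h (199 ± 7.86 against 115 ± 4.24 TPM, log2 fold change 0.79, SE 0.065, limma adjusted p = 6.23e-06). It fell with TNF (58.3 ± 5.55 against 115 ± 4.24 TPM, log2 fold change -0.97, SE 0.065, limma adjusted p = 3.19e-07), and the combination was above TNF alone by 1.59 on the log2 scale (limma adjusted p = 9.04e-08). Its interaction was the only one called in the list (log2 fold change 0.80, SE 0.092, limma adjusted p = 0.00226). Slc25a12, a mitochondrial aspartate-glutamate carrier of the same shuttle as Mdh1 and Got1, fell with BAY-876 at 32 h (17.7 ± 1.68 against 48.3 ± 0.794 TPM, log2 fold change -1.40, SE 0.074, limma adjusted p = 2.80e-07). Idh1, the cytosolic NADP-dependent isocitrate dehydrogenase, fell with TNF (66 ± 5.47 against 184 ± 6.42 TPM, log2 fold change -1.46, SE 0.054, limma adjusted p = 2.68e-09), as did mitochondrial Idh2. Among the other largest changes, the alanine aminotransferases Gpt and Gpt2 rose with BAY-876 at 36 h by 0.87 and 0.61 (limma adjusted p = 0.0277 and limma adjusted p = 0.00195), and the glutamate carrier Slc25a22 rose with TNF by 0.59 (limma adjusted p = 9.55e-05), all on the log2 scale. The propionyl-CoA carboxylase subunit Pcca fell with BAY-876 at 32 h (-43.5%, limma adjusted p = 0.00472).

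On day 16 most of these genes had lower TPM in OT1 T cells than in tumour cells. Of the 28 tested, 19 were lower and 1 was higher, in a comparison in which 74.5% of all 13511 genes differed (44.4% lower, 30.1% higher). The median log2 fold change was -0.50 over the members and -0.21 over all genes. The libraries of the 2 groups did not overlap for 15 of the 28 members and for 63.1% of all genes. Summed over the members, TPM was 2501 to 2747 in the tumour libraries and 1821 to 2153 in the OT1 libraries. In sorted bulk samples, fewer cells of a type and less RNA per cell cannot be told apart. All 8 T cell markers were detected in the OT1 libraries (4556 to 7566 TPM in sum, 3.93 to 8.93 in tumour), and the 6 LLC markers summed to 1239 to 1467 TPM in tumour and 47.2 to 160.7 in OT1. The 15 myeloid markers, all detected in the OT1 libraries, summed to 46.1 to 146.3 TPM in tumour but to 1316, 5838, 2846, 3854 and 15993 TPM in OT1 libraries 1 to 5. The sums in tumour and OT1 libraries were 0.911 to 7.38 and 42.3 to 60.1 TPM for 4 endothelial markers, 10.1 to 899 and 65 to 2781 for 5 erythroid markers and 328 to 835 and 27 to 84.1 for 6 fibroblast markers. No marker of the 3 lists was at 0 in all libraries of a group, but only 2 endothelial markers reached 1 TPM in either group. With OT1 libraries 1 and 3 alone, the pair with the lowest myeloid sum, 17 members were lower and 1 higher (47% and 20.7% of all 12054 genes tested in that fit). This alternative was chosen after seeing the data and still holds RNA of these lists, whose part in the results was not tested.

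**Figure D4:**
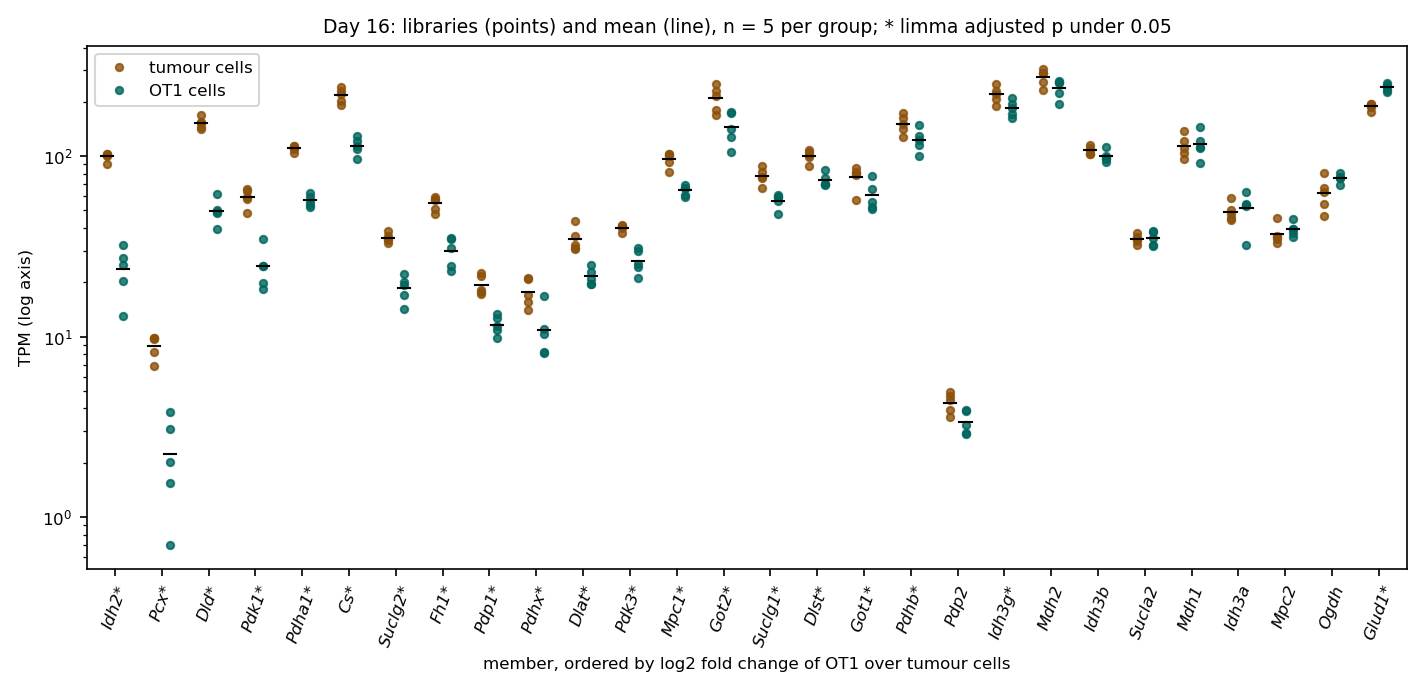
TPM (y axis, log scale) of the 28 members tested in 5 tumour libraries (brown points) and 5 OT1 libraries (green points) of day 16, with the group mean as a line; genes run along the x axis from the most negative log2 fold change to the most positive, and a star marks a limma adjusted p under 0.05. Idh2, Pcx, Dld and Pdk1 stand at the left with no overlap of the groups, and Glud1 at the right is the starred gene that is higher in OT1 cells. The groups did not overlap for 63.1% of all genes tested.

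Among the cycle enzymes, Idh2 differed most. It was 103, 103, 102, 90.5 and 99.9 TPM in the tumour libraries and 20.3, 25.1, 13, 27.4 and 32.3 in the OT1 libraries, a change of -76.3% (log2 fold change -2.09, SE 0.19, limma adjusted p = 1.33e-06). The groups were far apart, and with OT1 libraries 1 and 3 alone the log2 fold change was -2.54. The NAD-dependent partner Idh3a was not called, at 47.7, 50.5, 45.3, 44.3 and 58.9 TPM in tumour and 63.4, 54.4, 53.9, 52.9 and 32.3 in OT1 (log2 fold change 0.03, SE 0.16, limma adjusted p = 0.867). Cs was 202, 241, 221, 192 and 229 TPM in tumour and 129, 113, 109, 121 and 96.6 in OT1 (log2 fold change -0.93, SE 0.094, limma adjusted p = 2.95e-06), again without overlap. Fh1, fumarase, was 57.7, 47.9, 57.1, 51.2 and 59.6 TPM in tumour and 35, 24.6, 30.9, 34.5 and 23.2 in OT1 (log2 fold change -0.88, SE 0.13, limma adjusted p = 6.26e-05). Dlst and Suclg1 were lower, with changes of -26.5% and -27.1% (limma adjusted p = 4.56e-04 and limma adjusted p = 0.00124), while Ogdh and Sucla2 were not called. Ogdh was 46.3, 66.7, 63.1, 54.5 and 80.9 TPM in tumour and 80.8, 75.2, 69.6, 76.7 and 75.5 in OT1, and was called higher after quantile normalization, after median centring and without tumour library 5 (adjusted p = 0.00403, 0.00478 and 0.00745).

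Entry of pyruvate showed differences at several steps. Pcx was 6.88, 9.83, 8.23, 9.78 and 9.68 TPM in tumour and 3.07, 1.55, 2.03, 3.83 and 0.702 in OT1, a change of -74.8% in mean TPM (on the log2(TPM + 1) scale, log2 fold change -1.69, SE 0.25, limma adjusted p = 7.41e-05). OT1 library 5, with the highest myeloid sum, had the lowest Pcx value. Mpc1 was 103, 99.6, 93.3, 103 and 82.1 TPM in tumour and 66.7, 60.7, 69, 66.9 and 59.7 in OT1 (log2 fold change -0.57, SE 0.084, limma adjusted p = 7.26e-05), whereas its partner Mpc2 was 36.3, 35.6, 33, 34.9 and 45.3 and 35.5, 39.6, 39.5, 37.5 and 44.8 and was not called (log2 fold change 0.09, SE 0.1, limma adjusted p = 0.426). Within the dehydrogenase complex, Dld was 169.7, 152, 155, 146 and 141 TPM in tumour and 61.5, 48.6, 49.3, 50.6 and 39.4 in OT1 (log2 fold change -1.61, SE 0.11, limma adjusted p = 1.02e-07), and Pdha1 was 114, 110.3, 113, 105 and 110.2 and 62.9, 52.1, 56, 59.5 and 53.8 (log2 fold change -0.95, SE 0.072, limma adjusted p = 2.67e-07). Dlat (-37.8%, limma adjusted p = 3.02e-04) and Pdhx (-38.4%, limma adjusted p = 0.00696) were lower too. The decrease of Pdhb (-18.6%, limma adjusted p = 0.0333) was lost under both other scalings, with OT1 libraries 1 and 3 alone (adjusted p = 0.434) and without any of 6 single libraries.

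Of the regulators, Pdk1 was 64.3, 59.4, 66.1, 58.1 and 48.5 TPM in tumour and 24.8, 19.7, 18.4, 34.8 and 24.7 in OT1 (log2 fold change -1.27, SE 0.16, limma adjusted p = 1.76e-05), with no overlap. Pdk3 was 41.3, 40.1, 41, 37.3 and 41.2 TPM in tumour and 30.9, 24.2, 25.3, 29.9 and 21.2 in OT1 (log2 fold change -0.60, SE 0.11, limma adjusted p = 2.78e-04), and Pdp1 was lower (-40%, limma adjusted p = 2.28e-04). Pdp2 was not called (log2 fold change -0.28, SE 0.13, limma adjusted p = 0.0585), but was lower after quantile normalization and without tumour library 4 or OT1 library 1 (adjusted p = 0.0343, 0.041 and 0.0465). Pdk2, below the filter, was 0.193, 0.0875, 0, 0.0754 and 0.231 TPM in tumour and 1.54, 1.53, 0.864, 1.78 and 5.59 in OT1. All OT1 libraries lay above all tumour libraries for Pdk2, and the highest value was in OT1 library 5, which also had the highest myeloid sum. Pdk4 was 0.0281, 0.107, 0.146, 0.0464 and 0.862 TPM in tumour and 0.0262, 0, 3.06, 0 and 0.0753 in OT1, so 1 library held nearly all of the OT1 signal. Pdk1 took 53.4 to 61.7% of kinase TPM in tumour and 38.6 to 52.4% in OT1, and Pdk3 took 38.2 to 45.4% and 41.1 to 54%.

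Glud1 was the member called higher in OT1 cells, at 187, 176, 195, 194 and 193 TPM in tumour and 241, 247, 234, 226 and 255 in OT1 (log2 fold change 0.35, SE 0.064, limma adjusted p = 4.17e-04), with no overlap and under all 3 scalings. The ratio of Glud1 to Idh2 was 1.71 to 2.14 in tumour and 7.91 to 18 in OT1. Suclg2 was 38.3, 33.1, 34.8, 36.2 and 34.3 TPM in tumour and 22.3, 17.1, 19.2, 20 and 14.2 in OT1 (log2 fold change -0.91, SE 0.12, limma adjusted p = 2.00e-05), while Sucla2 was 33.9, 37.6, 34.9, 32.2 and 35.5 and 38.4, 38.1, 35.4, 32 and 31.9. The Suclg2 share of the pair was 46.8 to 53% in tumour and 30.8 to 38.5% in OT1, without overlap. The malate dehydrogenases were not called: Mdh1 was 137, 104, 112, 121 and 96.4 TPM in tumour and 144, 113, 112, 122 and 92 in OT1, and Mdh2 was 259, 291, 303, 233 and 291 and 259, 223, 261, 254 and 195. Without tumour library 4, which had the highest erythroid sum of the tumour libraries, Mdh2 was called lower (log2 fold change -0.27, limma adjusted p = 0.0381). Got2 was lower (-30.9%, limma adjusted p = 0.00775). The decreases of Got1 (limma adjusted p = 0.0471) and Idh3g (limma adjusted p = 0.0334) were lost under both other scalings, without any of 8 single libraries for Got1 and any of 6 for Idh3g, and that of Idh3g also with OT1 libraries 1 and 3 alone (adjusted p = 0.0717).

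Of the 32 neighbouring genes tested on day 16, 4 were higher and 18 lower in OT1 cells (30.1% and 44.4% of all genes), 5 and 18 after quantile normalization (31.1% and 43.5%) and 6 and 18 after median centring (32.8% and 41.2%). Cytosolic malic enzyme Me1, which turns malate into pyruvate, was 3.4 ± 2.04 against 40.2 ± 7.87 TPM in OT1 and tumour cells (log2 fold change -3.33, SE 0.29, limma adjusted p = 7.50e-07). Ogdhl, a paralog of Ogdh, was 1.26 ± 1.02 against 14.7 ± 1.14 TPM (log2 fold change -2.91, SE 0.26, limma adjusted p = 1.14e-06), and Gpt2 was 6.76 ± 3.41 against 40.7 ± 12.8 TPM (log2 fold change -2.46, SE 0.29, limma adjusted p = 1.12e-05).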

How the data were processed

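RNA of 28 libraries was sequenced after Trizol extraction and SMARTER library preparation, per the labels' protocols. Tools listed in the submitters' processing notes, with no roles, are STAR 2.6.1d, DESeq2 1.34.0 and Salmon (0.14.1 at 36 h, 0.13.1 elsewhere), with genome mm10. Neither the annotation nor the treatment of reads from near-identical gene copies is given in the sources used here. For 36 h the authors deposited normalized counts, a signal on DESeq2's scale as the table's name says. Its low values share no common step (3970 distinct among 4524 positive values under 10 in a library), which ruled a count test out. For 32 h and day 16 the authors deposited TPM. The authors' deposited comparison tables give a log2 fold change and an adjusted p-value per gene. Of the 32 h data, 24 columns of values belong to no sample used here. The treatment label of 2 combination libraries gives another compound number than the title, and the title was used.

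Values were taken to log2(value + 1), which understates changes of low genes. Genes with 10 normalized counts or 1 TPM in at least 3 libraries (5 on day 16) were fitted with limma 3.58.1 (R 4.3.3, mean-variance trend), all 12 libraries of the 32 h experiment together, with Benjamini-Hochberg adjusted p-values over all genes tested and a threshold of 0.05. The procedure was tested on simulated data. Percent changes are ratios of group means of the deposited values, and so differ somewhat from the fitted log2 fold changes. Members and lists were chosen with earlier results of these data known. Values in every library are given for the called members with the largest fold changes (up to 8 a comparison), the Pdk genes, Mpc1, Mpc2 and Pcx, and for others chosen after their values were seen; of the neighbouring genes, the called ones with the 3 largest changes, or part of these, are named. The labels give the groups the same replicate numbers but no shared culture, mouse or batch. Alternatives were another pseudocount, filter and scaling, a replicate block, fits of only the groups compared and each library left out. Gene positions are those of GENCODE on GRCm38.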

Additional observations from a re-analysis of the deposited data

Results flagged for a closer look

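In 6 of 60 groups of 5 day 16 libraries tested, 1 library stood apart from the other 4 by Dixon's criterion at 95%, where chance gives about 1 in 20. Got1 was 57.1 TPM in tumour library 4 and 78.3 to 85.5 in the other tumour libraries, and Idh2 was 90.5 TPM in the same library against 99.9 to 103 elsewhere. Mpc2 was 45.3 TPM in tumour library 5, above 33 to 36.3 in the others. Pdk2 was 5.59 TPM in OT1 library 5 and 0.864 to 1.78 in the other OT1 libraries. Pdk4 was 3.06 TPM in OT1 library 3 and 0 to 0.0753 in the others, and 0.862 TPM in tumour library 5 against 0.0281 to 0.146. Mdh1 moved in opposite directions in the 2 experiments with BAY-876, with a log2 fold change of 0.28 at 36 h and -0.23 at 32 h and no overlap of groups in either. That difference was not tested.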

How the results depend on the processing

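Of the 98 member results called, none was lost with another pseudocount or with a filter on the mean. Without a filter 9 lost their call, after quantile normalization 15, after median centring 18, with the replicate block 3, in fits of only the groups compared 5 of 76, and with OT1 libraries 1 and 3 alone 2 of 20. Leaving out single libraries removed the call of 16 results in at least 1 of their fits. The decrease of Cs in the combination against control turned to 0.068 after median centring, the 1 reversal. The count of members higher with BAY-876 at 36 h, 2, became 1 without a filter and 1 with the replicate block, and lay between 1 and 4 with 1 library left out. The members lower there, 0, became 1 with a mean of at least 100 normalized counts, 1 after median centring and 0 to 1 with 1 library left out. With BAY-876 at 32 h, the members higher (3) became 7 after quantile normalization, 10 after median centring and 5 in a fit of only the groups compared, and the members lower (10) became 6 and 5 under the 2 scalings. Median centring gave 14 members higher with TNF, 10 higher and 6 lower for the combination against TNF, and 14 higher and 4 lower for the combination against control. Quantile normalization gave 6 lower for the combination against TNF. In the interaction 1 member was lower without BAY-876 library 1, and the range over single libraries left out was 0 to 1. Among OT1 cells 2 members were higher without a filter, after quantile normalization and after median centring, and 1 to 2 with 1 library left out, the 2 without tumour library 5. The cause of these changes was not tested. Shares of all genes under quantile normalization and median centring are given with the results above. For the fits with another filter, with the replicate block, of only the groups compared and with single libraries left out, such shares were not computed. Member counts of those fits therefore cannot be set against all genes.

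Same-numbered libraries deviated from their group means with correlations of -0.074 to -0.019 (36 h), -0.19 to 0.12 (32 h) and 0.045 to 0.11 (day 16), so the numbers were not taken to pair the libraries. With the replicate block the calls lost were Mdh1 at 36 h, Dlat with BAY-876 at 32 h and Sucla2 in the combination against TNF, and those gained were Pdhb with BAY-876 at 32 h (log2 fold change 0.21, adjusted p = 0.047) and Idh3g in the combination against control (0.21, adjusted p = 0.0363). TPM keep no depth, so the counting error of a low member such as Pdk2 is unknown.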
